A study of Mus musculus with 8 samples.

Results

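The mitochondrial ribosomal protein genes are the nuclear genes whose mouse symbols begin with Mrpl (large subunit) or Mrps (small subunit). A gene was taken where an array row was annotated to that gene alone, with a symbol made of Mrpl or Mrps, a number and an optional letter. In all, 75 of 30711 measured genes were members, each on 1 row. RefSeq lists 78 such symbols, and the other 3 were not measured alone: the row of Mrpl30 is shared with Gm6238, that of Mrpl53 with Ccdc142 and that of Mrps6 with Slc5a3. Another 5 rows of pseudogenes were left out, and Mrpl58 stands in the array annotation under its older symbol Ict1.

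The mitochondrial ribosome is the particle inside mitochondria that translates the few mRNAs of the mitochondrial genome, all of which encode membrane subunits of the oxidative phosphorylation complexes. Its RNAs are made in the mitochondrion, while its proteins are encoded in the nucleus, made in the cytosol and imported. Some of these proteins descend from bacterial ribosomal proteins and others were added in the mitochondrial lineage. Oocytes pass a large stock of mitochondria to the zygote, and the 2-cell embryo has just begun to transcribe its own genome.

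RNA came from pools of 100 mouse embryos from B6C3F1 x CD1 matings, after PMSG and hCG (10 IU each, 48 h apart), and was measured on Affymetrix whole-transcript arrays in 4 groups of 2 pools. In the full treatment, the cytoplasm of zygotes at the mid-pronuclear stage received Trim21 mRNA and a COPS3 antibody in 1 injection. The second group received Trim21 mRNA only, the third the COPS3 antibody only, and the fourth was left non-manipulated in the incubator. TRIM21 recognises the constant part of antibodies and, as a ubiquitin ligase, directs them with their target to the proteasome, and COPS3 belongs to the COP9 signalosome. Embryos were kept for a further 28 h in culture, although the age label reads 24 h in vitro, and RNA was taken at the late 2-cell stage. Per the labels, cleavage was normal in the Trim21 mRNA and non-manipulated groups, and stunted with many undivided zygotes in both groups that carried the antibody. Each group had its own treatment day, shared by both its pools, so day and group cannot be told apart and every p-value measures only the spread between pools of a single day. There was no control antibody, so loss of COPS3 and the presence of an antibody as such cannot be told apart either. In pools of whole embryos, fewer cells at a given stage and less RNA per cell cannot be told apart.

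The stretches of promoter below show the regulatory sequence of members on which the results turn. Mrpl34, Mrpl22 and Mrps22 are members whose RNA fell with the full treatment, Mrpl12 encodes the stalk protein, and Mrpl24 had the highest difference of the family. They were chosen after the values were seen. Each line gives the 250 bases before the RefSeq gene start, 5′ to 3′ on the gene's strand (build GRCm38.p6). They lie at chr8:71464676-71464925 (plus strand) for Mrpl34, chr11:58171414-58171663 (plus) for Mrpl22, chr9:98601680-98601929 (minus) for Mrps22, chr11:120484387-120484636 (plus) for Mrpl12 and chr3:87919294-87919543 (plus) for Mrpl24. Capitals mark letters that match 1 of 4 motifs: CCGGAAG (the site of ETS factors such as GABPA), AANATGGCG (YY1), and the longer motifs of NRF1 (10 letters, 1 of them open to any base) and ZNF143 (13 letters, 2 of them open). The capitals in the Mrpl12 line are a match to the NRF1 motif read on the other strand, and those in the Mrpl24 line are 1 of the forms that match the ZNF143 motif.
Mrpl34: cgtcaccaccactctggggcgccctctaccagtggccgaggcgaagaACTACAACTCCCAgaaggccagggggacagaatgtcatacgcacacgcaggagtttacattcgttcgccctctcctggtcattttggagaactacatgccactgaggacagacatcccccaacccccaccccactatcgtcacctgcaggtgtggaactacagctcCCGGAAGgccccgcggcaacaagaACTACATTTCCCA
Mrpl22: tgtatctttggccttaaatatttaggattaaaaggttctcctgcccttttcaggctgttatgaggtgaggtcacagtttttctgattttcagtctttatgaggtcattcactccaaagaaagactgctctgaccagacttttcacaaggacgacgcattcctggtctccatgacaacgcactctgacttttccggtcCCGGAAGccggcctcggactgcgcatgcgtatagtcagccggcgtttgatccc
Mrps22: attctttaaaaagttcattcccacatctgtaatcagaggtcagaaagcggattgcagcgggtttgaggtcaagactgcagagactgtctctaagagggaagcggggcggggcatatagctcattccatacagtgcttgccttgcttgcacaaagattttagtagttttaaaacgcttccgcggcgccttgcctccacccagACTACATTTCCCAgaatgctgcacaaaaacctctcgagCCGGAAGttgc
Mrpl12: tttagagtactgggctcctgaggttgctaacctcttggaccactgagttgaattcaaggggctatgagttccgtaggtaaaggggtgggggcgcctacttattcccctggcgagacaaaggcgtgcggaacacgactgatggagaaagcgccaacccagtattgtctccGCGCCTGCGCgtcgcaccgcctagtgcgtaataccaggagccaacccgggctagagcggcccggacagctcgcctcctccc
Mrpl24: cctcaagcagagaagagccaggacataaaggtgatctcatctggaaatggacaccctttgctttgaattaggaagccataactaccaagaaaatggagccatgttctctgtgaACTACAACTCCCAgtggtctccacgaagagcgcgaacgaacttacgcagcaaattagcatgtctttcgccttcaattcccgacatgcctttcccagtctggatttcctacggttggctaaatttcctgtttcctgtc
Mrpl34 held the ETS letters at −37 to −31 from the start and the ZNF143 letters at both −203 to −191 and −13 to −1. Mrps22 held ETS letters at −11 to −5 and ZNF143 letters at −49 to −37, Mrpl22 ETS letters at −53 to −47, Mrpl12 the NRF1 letters on the other strand at −81 to −72, and Mrpl24 the ZNF143 letters at −137 to −125.

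RefSeq promoter windows of 300 bases (250 before to 50 after the start) were matched by symbol for 66 of the 75 genes. Those not listed were Mrpl4, Mrpl13, Mrpl15, Mrpl19, Mrpl38, Mrpl54, Mrps28, Mrps34 and Mrps35. Both strands were searched. The ETS letters were present for 25 of the 66 genes (37.9%), against 12.9% of 17491 protein-coding genes. The NRF1 letters were present for 12 (18.2%, against 7.2%), the YY1 letters for 11 (16.7%, against 3.6%) and the ZNF143 letters, a motif added after the sequences had been read, for 5 (7.6%, against 2.4%). The promoters with the ZNF143 letters were those of Mrpl24, Mrpl34, Mrpl42, Mrpl50 and Mrps22. Those of Mrpl24, Mrpl34 and Mrps22 are among the sequences printed above, so the share of this motif is not independent of its choice. At least 1 of these 4 motifs was found for 42 genes (63.6%). That share was not counted over all protein-coding genes, so it has no value to be set against. The general promoter motifs TATAAA (5 genes, 7.6%, against 14.8%) and CCAAT (26 genes, 39.4%, against 42.3%) were not more frequent than among all protein-coding genes. These shares are descriptions of letters in a window and were not tested. Among members with a promoter entry, the ETS letters were present for 14 of the 32 that fell with the full treatment (43.8%) and for 11 of the 34 others (32.4%). The ETS, NRF1 and ZNF143 letters therefore stood in promoters of members that fell and of members that did not.

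The deposited values are log2 levels of array rows. A level depends on the probes of its row, so levels were compared between groups within a gene and not between genes. A gene is said to have fallen or risen where limma, fitted to all genes and all 8 arrays, gave an adjusted p under 0.05. Errors are standard errors of that fit, with n = 2 pools per group. Trim21 was at 10.40 and 10.30 in full-treatment pools and at 9.77 and 10.14 with Trim21 mRNA, against 6.76 and 6.37 with antibody alone and 6.27 and 5.65 in non-manipulated embryos, as the labels have it. Cops3, whose protein is the target, was at 9.06 and 9.40 in full-treatment pools against 10.00 and 9.97 with Trim21 mRNA. It was at 8.85 and 8.86 with antibody alone, against 9.50 and 9.52 in non-manipulated embryos. The method acts on the protein, so its RNA checks nothing about the depletion. The array distributions differed. The standard deviation of all rows was 2.27 to 2.60 on antibody-carrying arrays and 2.66 to 2.71 on the others. The median of all genes moved by 0.21 between the full treatment and Trim21 mRNA and by 0.18 between antibody alone and non-manipulated embryos. These medians stand beside the values below but are not a baseline at every level. In the first comparison all-gene medians ran from 0.30 for genes at 4 to 6 in non-manipulated embryos to −1.22 for those at 10 to 14. Of the 30711 genes, 14862 were in the class at 4 to 6. Genes below 4 or at 14 and above were in no class. Of 12 oocyte and 2-cell embryo markers, 8 rose and 1, Zp3, fell between the full treatment and Trim21 mRNA, and 5 rose between antibody alone and non-manipulated embryos. No member was at the highest value of its array, where 136 to 169 rows were piled up on both full-treatment arrays and on the first antibody-alone array. The number of arrays limits the precision.

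Injection of the antibody with Trim21 mRNA was accompanied by lower RNA levels of many mitochondrial ribosomal proteins than injection of Trim21 mRNA alone. The falls were in both subunits, and the large-subunit genes Mrpl34 and Mrpl22 had the lowest differences. The median level of the 75 genes was 7.02 and 6.97 in the full-treatment pools, against 8.19 and 8.17 in the Trim21 mRNA pools. In this comparison 38 members fell and none rose, so that 50.7% of the members fell, against 14.5% of all genes, while 8.72% of all genes rose. Their median log2 difference was −0.965, beside 0.21 over all genes, and 62 of 75 differences were below 0. Both full-treatment pools lay below both Trim21 mRNA pools for 59 members (78.7%, against 26.4% of all genes), and above them for 8 (10.7%, against 50.3%). Of the 38 falls, 32 were at least 2-fold and 13 at least 4-fold. The counts that follow come from other fits, for which no share of all genes is given to set them against. Without the first Trim21 mRNA pool 21 members fell and without the second 24. Of the 38 falls, 20 were called without any 1 of the 8 arrays and under quantile, median and cyclic loess scaling, under which 31, 41 and 32 members fell.

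**Figure D1:**
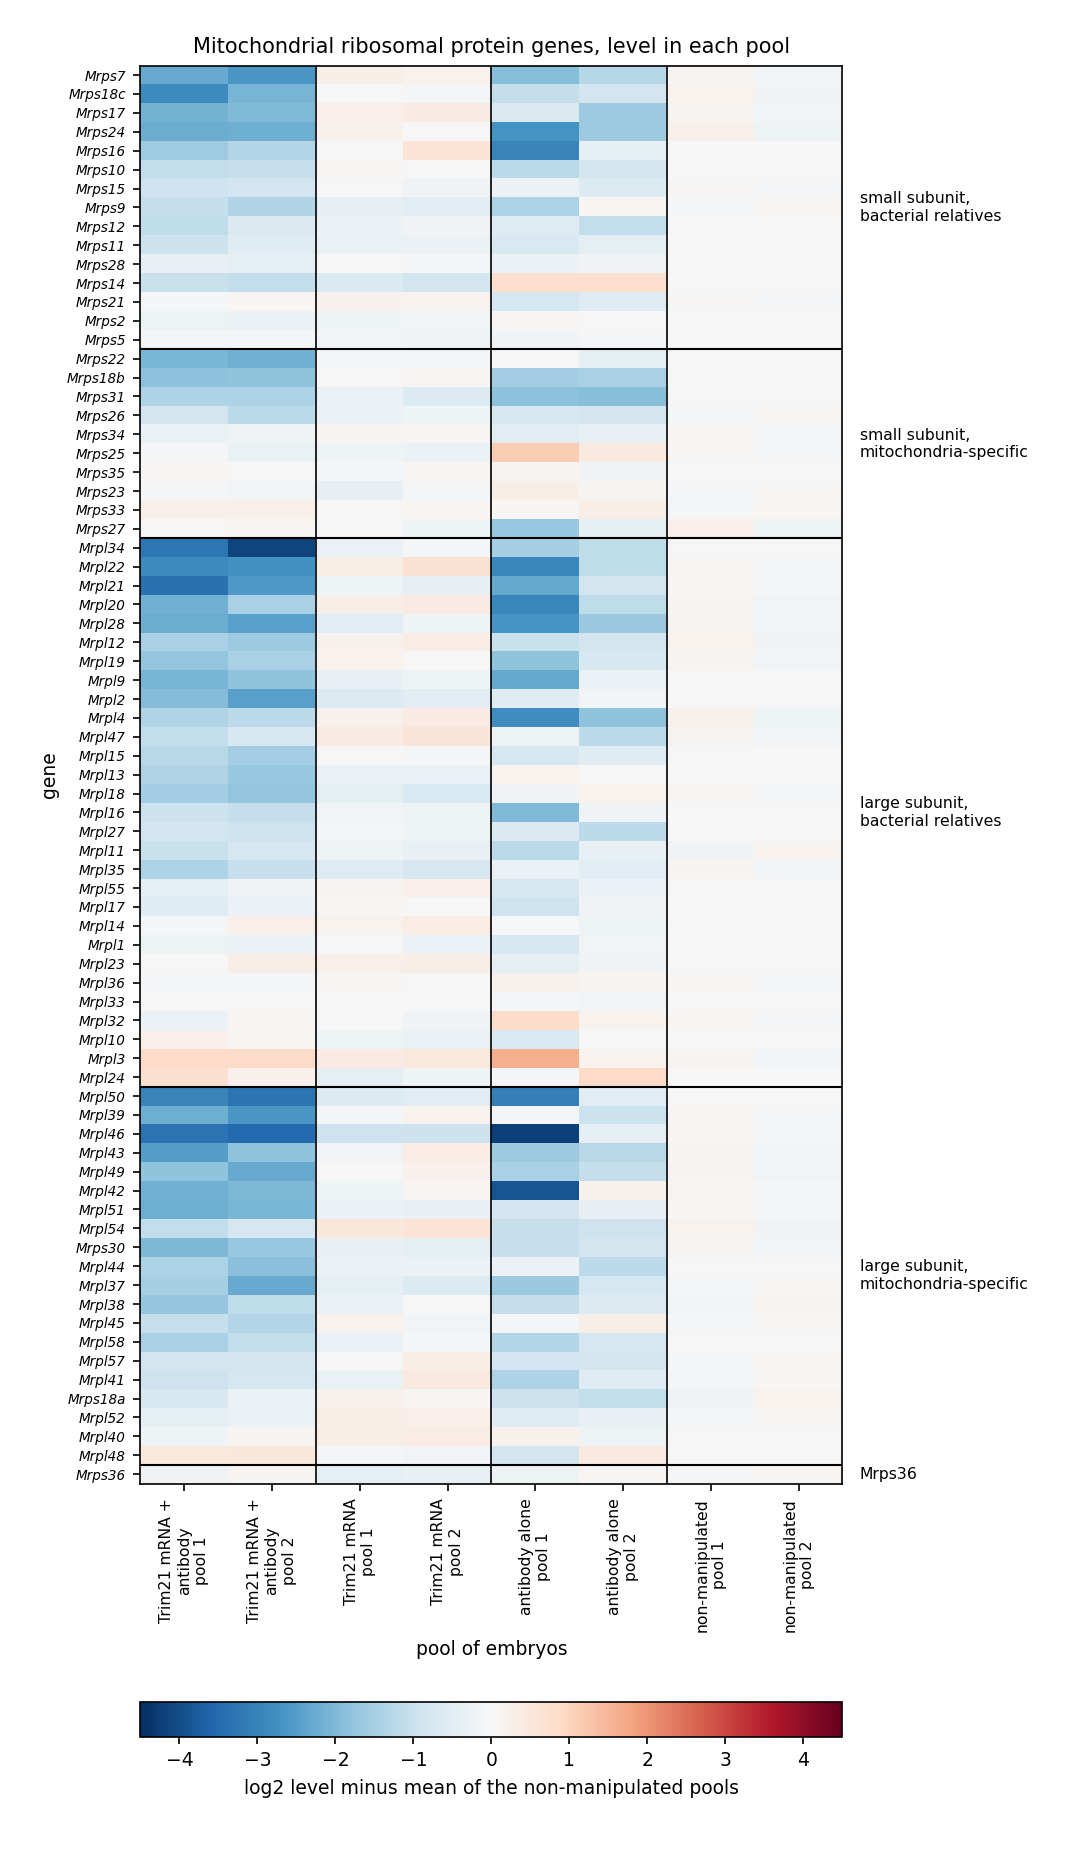
Level of each mitochondrial ribosomal protein gene (rows, grouped by subunit and origin) in each of the 8 pools (columns), as log2 level minus the mean of the non-manipulated pools. Blue cells, below that mean, fill much of both full-treatment columns and of the first antibody-alone column, and the Trim21 mRNA columns are mostly pale.

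Mrpl34, a small protein of the large subunit, was at 6.62 and 5.73 in full-treatment pools, against 9.56 and 9.81 with Trim21 mRNA. Both full-treatment pools were far below the other 6 pools, and the difference of −3.51 ± 0.30 (11.4-fold, adjusted p = 0.00032) was the lowest of the family. Mrpl22, which lines the exit tunnel of the growing chain, was at 9.83 and 9.97 in full-treatment pools, against 12.98 and 13.39 with Trim21 mRNA, a difference of −3.29 ± 0.51 (adjusted p = 0.0044). Its pools did not overlap. Mrpl21, another large-subunit protein with a bacterial relative, was at 7.02 and 7.80 in full-treatment pools and at 10.18 and 10.01 with Trim21 mRNA (−2.69 ± 0.48, adjusted p = 0.0074). Of the small subunit, Mrps7, a protein of its head, was at 7.74 and 7.36 in full-treatment pools, against 10.26 and 10.16 with Trim21 mRNA (−2.66 ± 0.25, adjusted p = 0.00049). All of these groups stood clear of each other by more than the gap between pools.

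Among members without a bacterial relative, Mrpl50 was at 7.25 and 6.97 in full-treatment pools and at 9.66 and 9.80 with Trim21 mRNA (−2.62 ± 0.72, adjusted p = 0.040). Mrpl39 was at 8.17 and 7.76 in full-treatment pools, against 10.32 and 10.55 with Trim21 mRNA (−2.47 ± 0.30, adjusted p = 0.0015). Both fell, although the error of Mrpl50 was large, since its antibody-alone pools lay at 7.17 and 9.75 and all groups share the estimate of the spread. Mrpl46 was at 6.89 and 6.69 in full-treatment pools and at 9.28 and 9.24 with Trim21 mRNA, a difference of −2.47 ± 1.04 that was not called (adjusted p = 0.13). Its antibody-alone pools were at 5.99 and 9.79, and without that group the same difference had an adjusted p of 3.6e-05. Mrps18c, a bacterial-type protein of the small-subunit body, completed the 8 lowest differences, at 8.04 and 8.83 in full-treatment pools and 10.91 and 10.83 with Trim21 mRNA (−2.44 ± 0.27, adjusted p = 0.0010).

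Proteins at the functional centres of the ribosome were among the genes that fell. Mrpl12, the stalk protein that recruits translation factors, was at 6.22 and 6.04 in full-treatment pools and at 7.87 and 8.03 with Trim21 mRNA (−1.82 ± 0.18, adjusted p = 0.00060). Its partners at the stalk base did not pass the test: Mrpl10 differed by 0.37 ± 0.24 (adjusted p = 0.29) and Mrpl11 by −0.61 ± 0.30 (adjusted p = 0.18). Of the stalk genes, Mrpl12 alone was called. Of the core of the large subunit, Mrpl2 was at 9.03 and 8.54 in full-treatment pools, against 10.38 and 10.52 with Trim21 mRNA (−1.67 ± 0.22, adjusted p = 0.0023), and Mrpl4 at 9.23 and 9.40, against 10.76 and 10.96 (−1.54 ± 0.32, adjusted p = 0.015). Both fell, whereas Mrpl3, of the same core, was at 10.78 and 10.77 in full-treatment pools and 10.28 and 10.38 with Trim21 mRNA. Its difference of 0.44 ± 0.43 was not called (adjusted p = 0.46).

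Mrpl27, beside the peptidyl transferase centre, was at 7.21 and 7.16 in full-treatment pools and 7.97 and 7.88 with Trim21 mRNA, and fell (−0.74 ± 0.19, adjusted p = 0.035). Mrpl16, which contacts tRNA, was at 7.29 and 7.17 in full-treatment pools and at 8.12 and 8.00 with Trim21 mRNA, and was not called (−0.83 ± 0.51, adjusted p = 0.26). Its groups did not overlap, and its antibody-alone pools were at 6.27 and 8.07. Mrpl36 had nearly equal levels, 5.17 and 5.15 in full-treatment pools and 5.30 and 5.25 with Trim21 mRNA (−0.11 ± 0.14, adjusted p = 0.56), with both groups near the bottom of the family's range. Mrpl45, which holds the ribosome at the inner membrane, fell (8.03 and 7.75 in full-treatment pools, 9.22 and 8.93 with Trim21 mRNA, −1.19 ± 0.20, adjusted p = 0.0061). So did Mrpl44, which carries an RNase III fold, at 6.24 and 5.78 in full-treatment pools and 7.41 in both Trim21 mRNA pools (−1.40 ± 0.31, adjusted p = 0.019). Mrpl58, a peptidyl-tRNA hydrolase built into the large subunit, fell as well (−1.09 ± 0.22, adjusted p = 0.013). Mrpl32, which is matured by the m-AAA protease, differed by 0.01 ± 0.25 (adjusted p = 0.97, with the other sign after median centring).

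In the small subunit, Mrps18b was at 6.79 and 6.81 in full-treatment pools and at 8.64 and 8.72 with Trim21 mRNA (−1.88 ± 0.14, adjusted p = 0.00019), the smallest adjusted p of the family. Mrps22, a mitochondria-specific protein, was at 7.44 and 7.33 in full-treatment pools, against 9.40 and 9.44 with Trim21 mRNA (−2.04 ± 0.19, adjusted p = 0.00043). In both genes the pools of each of these groups lay within 0.11 of each other, and the groups were far apart. Mrps16 was at 7.43 and 7.71 in full-treatment pools and 9.05 and 9.65 with Trim21 mRNA, and was not called (−1.78 ± 0.74, adjusted p = 0.13), with antibody-alone pools at 6.02 and 8.63. Mrps12, of the decoding centre, was lower in both full-treatment pools and not called (−0.67 ± 0.24, adjusted p = 0.091). Mrps5 (0.07 ± 0.14, adjusted p = 0.73), Mrps2 (−0.08 ± 0.14, adjusted p = 0.71), Mrps27 (0.17 ± 0.39, adjusted p = 0.76) and Mrps34 (−0.32 ± 0.15, adjusted p = 0.16) were not called, and the signs of the first 3 changed with the scaling.

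No member rose with the full treatment on the deposited scale in limma's test, and none was higher at an unadjusted p under 0.05. The highest differences were those of Mrpl24 (0.76 ± 0.33, adjusted p = 0.14), Mrpl48 (0.60 ± 0.36, adjusted p = 0.26), Mrpl3 and Mrpl10. Mrpl24, of the tunnel exit, was at 9.64 and 9.11 in full-treatment pools, against 8.52 and 8.72 with Trim21 mRNA, so its groups did not overlap. Calls for these genes changed with the processing. Under quantile normalization Mrpl10, Mrpl24, Mrpl48, Mrps23 and Mrps33 were called higher, 5 members, and under cyclic loess all of these except Mrpl48, 4 members, whereas none was called higher after median centring. With the antibody-alone group left out, a choice made after seeing the data, Mrpl3, Mrpl10, Mrpl24 and Mrpl48 were called higher, all 38 falls were kept and 13 more members fell. No share of all genes is given for that fit or for these scalings. On the deposited scale 14 members differed by at most 0.2 in either direction. Mrpl33 and Mrpl36 were among them, and so were Mrps23 and Mrps33, which were called higher under other scalings.

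The 4 structural classes overlapped widely in the size of their differences. Of 20 measured mitochondria-specific proteins of the large subunit, which include Mrps30 and Mrps18a in spite of their names, 14 fell, with a median of −1.38. Mrps30 fell (−1.49 ± 0.19, adjusted p = 0.0017), and Mrps18a was not called (−0.63 ± 0.21, adjusted p = 0.071). Of 29 large-subunit proteins with bacterial relatives, 14 fell (median −0.83), and of 15 such small-subunit proteins 6 fell (median −0.76). Of the 10 mitochondria-specific small-subunit proteins 4 fell, Mrps18b, Mrps22, Mrps26 and Mrps31, and the median was −0.14, with 5 of 10 differences below 0. Mrps36, now known as a subunit of the oxoglutarate dehydrogenase complex and not of the ribosome, was at 6.62 and 6.90 in full-treatment pools and 6.39 and 6.45 with Trim21 mRNA (0.34 ± 0.18, adjusted p = 0.20). Differences between the classes were not tested.

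**Figure D2:**
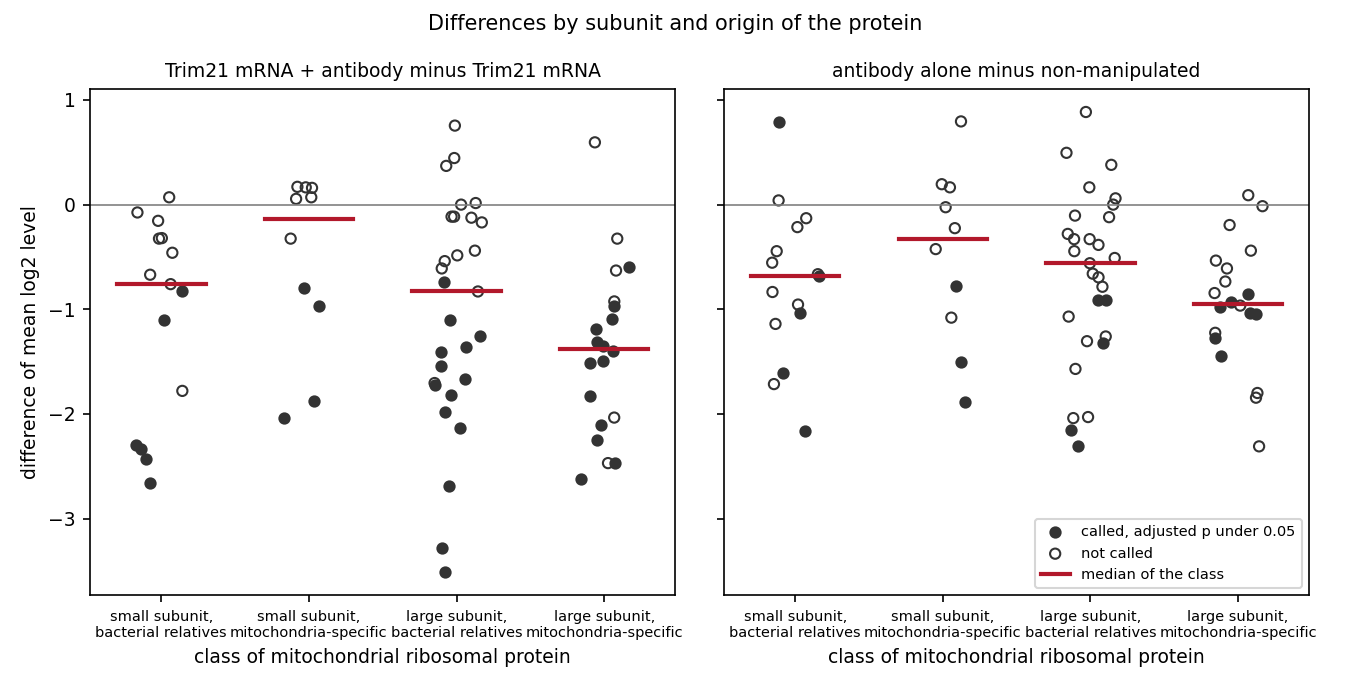
Difference of mean log2 level for 74 members by class, for the full treatment minus Trim21 mRNA (left) and antibody alone minus non-manipulated (right). Filled points were called at an adjusted p under 0.05, open points were not, and red bars are class medians, which in the left panel run from −0.14 for mitochondria-specific small-subunit proteins to −1.38 for mitochondria-specific large-subunit proteins.

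The size of the difference went with the brightness of the array row. Classes of level ran from 4 to 14, and genes below 4 or at 14 and above were in no class. Of 15 members with a level of 10 to 14 in non-manipulated embryos 12 fell (80%), against 53.1% of all genes at that level. Of 27 members at 8 to 10, 15 fell (55.6%, against 36.7% of all genes), and of 29 at 6 to 8, 11 fell (37.9%, against 17.2%). None of the 4 members at 4 to 6 fell, where 0.7% of all genes did. Medians of the members were −2.30, −1.31, −0.60 and 0.04 from the brightest to the dimmest class, beside −1.22, −0.55, −0.07 and 0.30 over all genes. Fewer than 20 members filled the brightest and the dimmest class. In each of the 3 upper classes the members' median lay below that of all genes at the same level. Across the 75 genes, which share arrays and are not independent replicates, level and difference correlated at −0.647 (Pearson) and −0.625 (Spearman), and across all genes at −0.568 and −0.462.

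**Figure D3:**
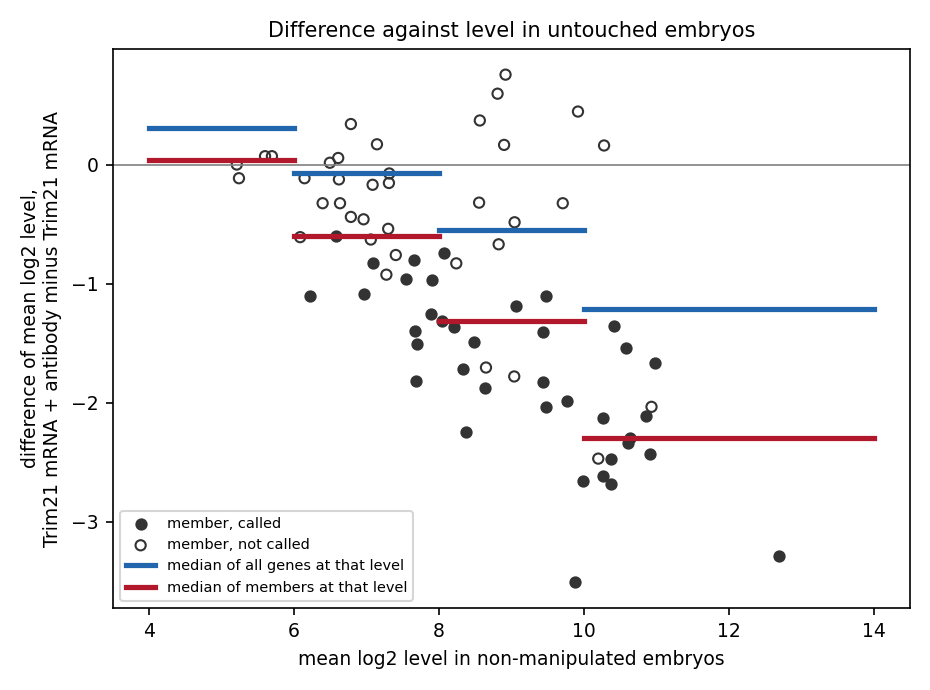
Difference of mean log2 level, full treatment minus Trim21 mRNA, against the mean log2 level in non-manipulated embryos, for the 75 genes (filled, called; open, not called). Bars are medians within classes of level, red for the members and blue for all genes, and the red bar lies below the blue one in each class.

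The antibody without injected Trim21 mRNA was accompanied by a smaller and less even shift, set against non-manipulated embryos. These groups differ in the injection as well as in the antibody. Here 19 members fell (25.3%, against 7.28% of all genes) and 1, Mrps14, rose (1.33%, against 2.75%). The median difference was −0.695, beside 0.18 over all genes. Both antibody-alone pools lay below both non-manipulated pools for 54 members (72%, against 21.5% of all genes), and above them for 6 (8%, against 39.6%). The count of calls changed strongly when 1 pool was left out, also with a Trim21 mRNA pool, which is not part of this comparison. Such a pool enters only through the shared estimate of the spread. With 1 array left out the median difference ran from −0.78 (without the second antibody-alone pool) to −0.455 (without the first). In a fit of only the groups compared no member was called, and 8, 24 and 11 members fell under quantile, median and cyclic loess scaling. Shares of all genes are not given for these fits.

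Mrpl46 and Mrpl4 had the lowest differences. Mrpl46 was not called (−2.31 ± 1.04, adjusted p = 0.20), with its antibody-alone pools at 5.99 and 9.79 and its non-manipulated pools at 10.28 and 10.12. Mrpl4 fell, with 7.78 and 8.76 in antibody-alone pools and 10.76 and 10.40 in non-manipulated pools (−2.31 ± 0.32, adjusted p = 0.0090). Mrps24, which lies at the mRNA entry, was at 7.96 and 9.00 with antibody alone, against 10.86 and 10.43 in non-manipulated embryos (−2.17 ± 0.34, adjusted p = 0.013). Mrpl28 was at 7.13 and 8.11 with antibody alone, against 9.89 and 9.65 in non-manipulated embryos (−2.15 ± 0.32, adjusted p = 0.011). For Mrpl4, Mrps24 and Mrpl28 the antibody-alone pools were about 1 log2 unit apart and still far below both non-manipulated pools, whereas the second Mrpl46 pool lay close to them. Mrps31 was tighter, at 5.70 and 5.61 with antibody alone, against 7.57 and 7.51 in non-manipulated embryos (−1.89 ± 0.16, adjusted p = 0.0029). Mrps18b was at 7.08 and 7.17 with antibody alone and at 8.66 and 8.60 in non-manipulated embryos (−1.51 ± 0.14, adjusted p = 0.0031). The stalk gene Mrpl12 also fell (6.69 and 6.84 with antibody alone, 7.85 and 7.51 in non-manipulated embryos, −0.92 ± 0.18, adjusted p = 0.025).

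Mrps14, a bacterial-type protein of the small-subunit head, went the other way. It was at 9.34 and 9.35 with antibody alone, against 8.56 and 8.55 in non-manipulated embryos (0.79 ± 0.15, adjusted p = 0.021). It was called higher under quantile normalization (1.03) and cyclic loess (1.04). It was not called after median centring, with a trended prior, with only the groups compared, or without any 1 of the non-manipulated or Trim21 mRNA pools. The highest differences that were not called were those of Mrpl3 (0.89 ± 0.43, adjusted p = 0.23), Mrps25 (0.80 ± 0.24, adjusted p = 0.091) and Mrpl32 (0.49 ± 0.25, adjusted p = 0.24).

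Of the 38 members that fell with the full treatment against Trim21 mRNA and the 19 that fell with antibody alone against non-manipulated embryos, 17 were shared, 44.7% of the first list and 89.5% of the second. Over all genes, 1917 of 4449 and 2237 falls were shared, 43.1% and 85.7%, so the overlap within the family was close to that of all genes. The remaining 2 of the second list were Mrps18a and Mrps21. These comparisons share no array. Across the 75 genes their differences correlated at 0.732 (Pearson) and 0.752 (Spearman), and across all genes at 0.684 and 0.615. This is a description across genes of 1 set of arrays. For 49 members (65.3%, against 17.1% of all genes) both comparisons had non-overlapping pools with the antibody-carrying group lower.

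The antibody-alone pools disagreed with each other more than those of any other group. Of 75 members, 15 differed by more than 1 log2 unit between these pools (20%, against 15.01% of all genes), and none did so between the pools of the full treatment, Trim21 mRNA or non-manipulated group. Mrpl42 was at 7.05 and 11.13, a gap of 4.08, and Mrpl46 at 5.99 and 9.79. In the other groups the widest gaps were 0.89 (Mrpl34, full treatment), 0.73 (Mrpl41, Trim21 mRNA) and 0.49 (Mrps27, non-manipulated). The second antibody-alone pool had the higher level for 52 of 75 members. For Mrpl42, whose non-manipulated pools were at 10.99 and 10.88, the first antibody-alone pool lay far below them and the second close to them, and the difference of −1.84 ± 1.12 was not called (adjusted p = 0.30). The difference of Mrpl42 between the full treatment (8.79 and 8.93) and Trim21 mRNA (10.75 and 11.04) was likewise not called with all groups in the fit (−2.04 ± 1.12, adjusted p = 0.22), and was called without the antibody-alone group (adjusted p = 9.7e-05).

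**Figure D4:**
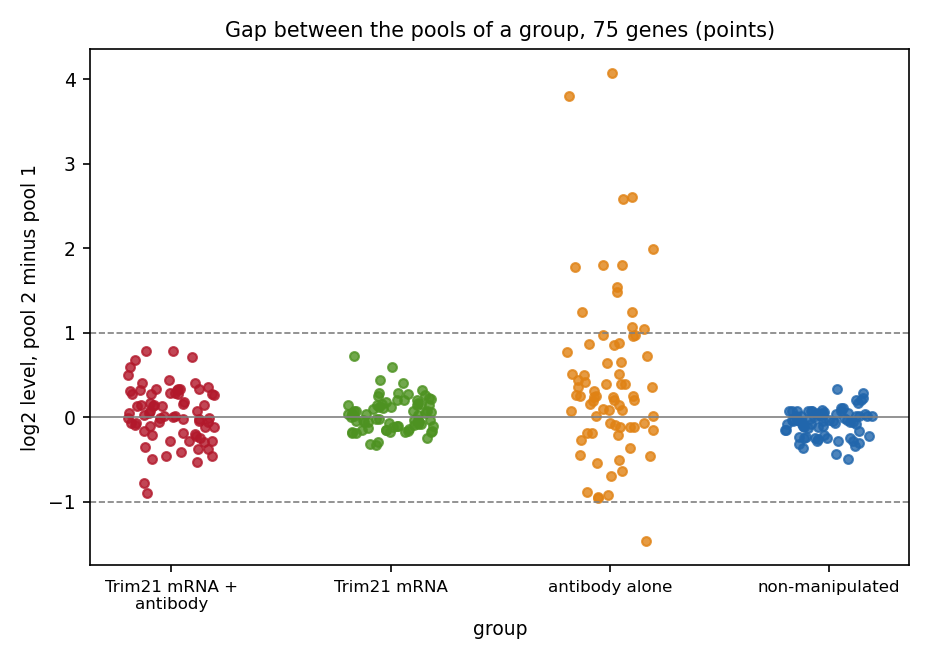
Level in pool 2 minus level in pool 1 (log2) for each of the 75 genes, by group. Points of the antibody-alone group spread from below −1 to 4.08, and those of the other groups stay between the dashed lines at 1 and −1.

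Injection of Trim21 mRNA by itself left no called difference in the family. Against non-manipulated embryos 0 members fell (0% of all genes fell) and 0 rose (0.00326% of all genes, 1 gene, rose), with a median of −0.06 beside 0.04 over all genes. At an unadjusted p under 0.05, limma had 5 members lower and 1 higher. The extremes were Mrpl46 (−0.94 ± 1.04), Mrps14 (−0.74 ± 0.15), Mrpl35 (−0.67 ± 0.19) and Mrpl18 (−0.57 ± 0.19) at the low end, and Mrpl54 (0.56 ± 0.19), Mrpl22 (0.49 ± 0.51), Mrpl47 (0.49 ± 0.32) and Mrpl3 (0.41 ± 0.43) at the high end. Their adjusted p ran from 0.47 (Mrps14) to 0.97. For Mrps14, at 7.91 and 7.73 with Trim21 mRNA against 8.56 and 8.55 in non-manipulated embryos, the groups did not overlap. In a fit of only these groups 6 members fell. The 0% of all genes above belongs to the fit of all 8 arrays, and no such share is given for the smaller fit.

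Between the groups that carried the antibody, the full treatment was set against antibody alone to ask what injected Trim21 mRNA added. Here 14 members fell (18.7%, against 10.5% of all genes) and 1, Mrps21, rose (1.33%, against 4.37%), with a median of −0.225 beside 0.045 over all genes. Mrpl34, at 8.37 and 8.73 with antibody alone, had the lowest difference (−2.38 ± 0.30, adjusted p = 0.0029). Mrps22 fell, with 7.44 and 7.33 in full-treatment pools against 9.49 and 9.03 with antibody alone (−1.88 ± 0.19, adjusted p = 0.0012), and so did Mrpl39 and Mrpl2 (each −1.88). Mrps14 was at 7.55 and 7.45 in full-treatment pools, against 9.34 and 9.35 with antibody alone (−1.85 ± 0.15, adjusted p = 0.00056). The other 9 that fell were Mrpl13, Mrpl15, Mrpl18, Mrpl35, Mrpl45, Mrpl51, Mrps18c, Mrps25 and Mrps30. Mrps21, a small-subunit protein with a bacterial relative, was at 7.25 and 7.41 in full-treatment pools and 6.52 and 6.73 with antibody alone (0.71 ± 0.16, adjusted p = 0.026), a call not kept after median centring. Mrps27 (1.14 ± 0.39, adjusted p = 0.11), Mrpl4 (1.04 ± 0.32, adjusted p = 0.080) and Mrpl48 (0.69 ± 0.36, adjusted p = 0.28) had the other high differences. For the fits that follow, with a pool left out, no share of all genes is given. Without the first antibody-alone pool 29 members fell and 2 rose, without the second 10 rose, and without any 1 of the other 6 pools none rose.

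Whether the antibody difference depended on injected Trim21 mRNA was tested as an interaction, the difference of the full treatment from Trim21 mRNA minus that of antibody alone from non-manipulated embryos. It was called below 0 for 4 members (5.33%, against 3.45% of all genes) and above 0 for none (0.625% of all genes; 2 members at an unadjusted p under 0.05 in limma), with a median of −0.135 beside −0.005. The share of members called below 0 was near that of all genes. The 4 were Mrpl34 (−2.19 ± 0.42, adjusted p = 0.040), Mrps22 (−1.81 ± 0.26, adjusted p = 0.016), Mrpl13 (−1.31 ± 0.24, adjusted p = 0.036) and Mrps14 (−1.11 ± 0.21, adjusted p = 0.036). Mrps22 was at 9.49 and 9.03 with antibody alone and 9.50 and 9.47 in non-manipulated embryos, a difference of −0.23 ± 0.19 (adjusted p = 0.43) that was not called and changed sign under quantile and cyclic loess scaling. Mrpl13 was at 6.53 and 6.18 in full-treatment pools and 7.62 and 7.60 with Trim21 mRNA (−1.25 ± 0.17, adjusted p = 0.0025), but at 8.04 and 7.85 with antibody alone and 7.86 and 7.91 in non-manipulated embryos (0.06 ± 0.17, adjusted p = 0.82, with the other sign after median centring). Both were low in full-treatment pools and in no other group. Mrpl34 was lower in both antibody groups, by 3.51 with Trim21 mRNA and by 1.33 without it (−1.33 ± 0.30, adjusted p = 0.039). Mrps14 had its lowest levels in full-treatment pools (7.55 and 7.45), close to those with Trim21 mRNA (7.91 and 7.73), and its highest with antibody alone.

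Of these, Mrps22 alone was called under all 3 other scalings, and 0 members were called without any 1 non-manipulated or Trim21 mRNA pool. Without the second full-treatment pool none of these 4 was called and 1 other member, Mrps18c, was, and without the first or second antibody-alone pool 17 and 14 were called below 0, and 1 and 8 above 0. Shares of all genes are not given for these settings. With all arrays in the fit, Mrpl39 (−1.94 ± 0.43, adjusted p = 0.063) and Mrps18c (−1.48 ± 0.39, adjusted p = 0.10) were the lowest of those not called among the 4 lowest of the family. At the other end were Mrps27 (1.25 ± 0.55, adjusted p = 0.37), Mrps31 (0.92 ± 0.23, adjusted p = 0.094), Mrpl48 (0.79 ± 0.52, adjusted p = 0.62) and Mrpl4 (0.77 ± 0.45, adjusted p = 0.56). Mrps31 was at 6.14 in both full-treatment pools and at 7.27 and 6.94 with Trim21 mRNA (−0.96 ± 0.16, adjusted p = 0.0064), a smaller difference than with antibody alone.

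**Figure D5:**
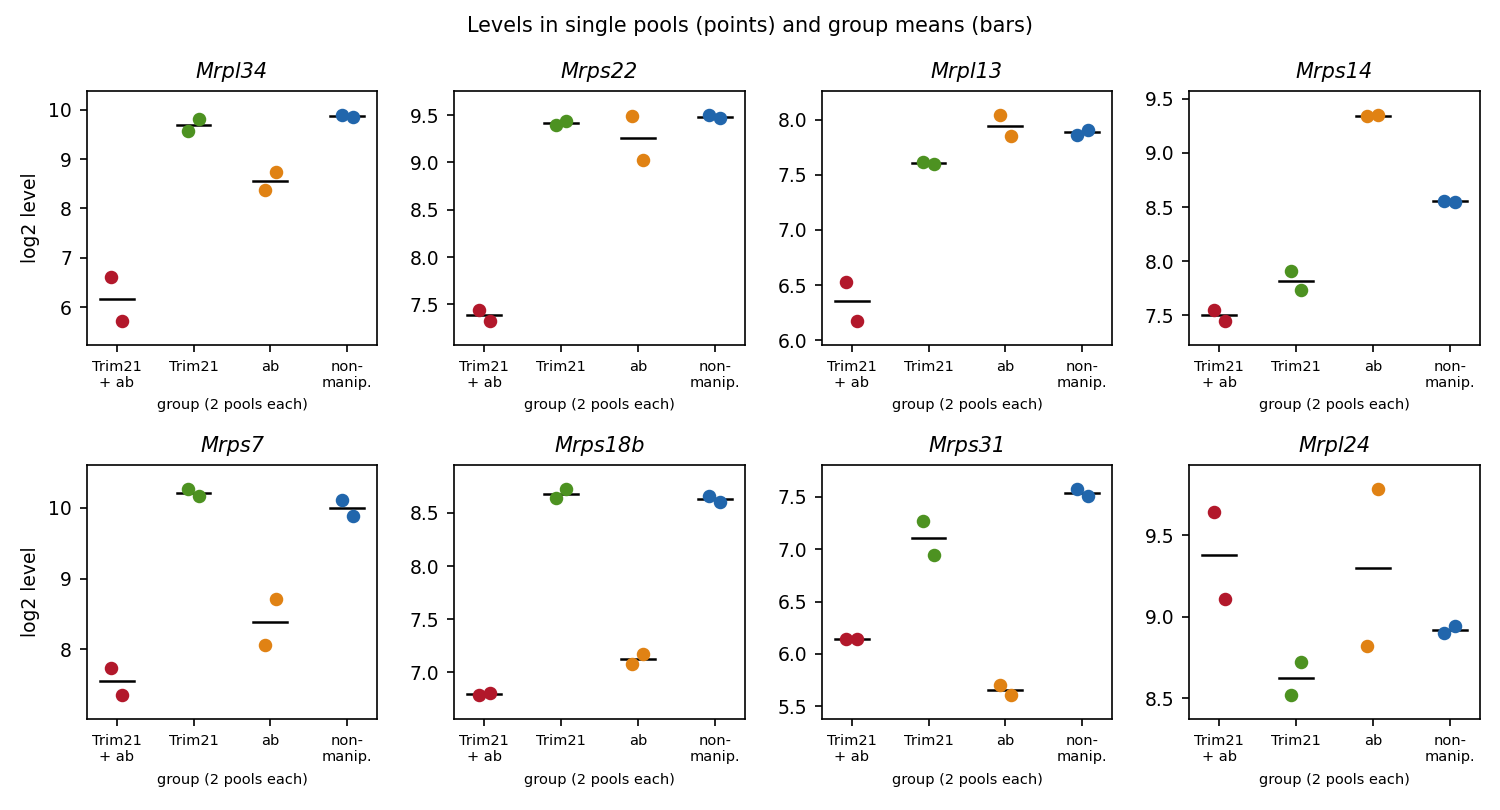
Log2 level of 8 members in each pool (points) with the group mean (bars), for Trim21 mRNA plus antibody, Trim21 mRNA, antibody alone (ab) and non-manipulated embryos. Mrps22 and Mrpl13 are low in full-treatment pools only, Mrps7, Mrps18b and Mrps31 in both antibody groups, and the Mrpl24 panel has no called difference.

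The full treatment and non-manipulated embryos share neither injection nor antibody, and this comparison shares arrays with those above. Against non-manipulated embryos 42 members fell (56%, against 16.6% of all genes) and 0 rose (15.1% of all genes did; 0 members were higher at an unadjusted p under 0.05 in limma), with a median of −1.055 beside 0.24 over all genes. Without either of the non-manipulated pools 26 members fell. Under quantile normalization Mrpl3, Mrpl10, Mrpl24, Mrpl48, Mrps23 and Mrps33 were called higher, 6 members, and under cyclic loess Mrpl24 and Mrps33, with a median of −0.664. Shares of all genes are not given for these scalings or with a pool left out. Mrpl34 (−3.70 ± 0.30, adjusted p = 0.00025), Mrpl46 (−3.41 ± 1.04, adjusted p = 0.046), Mrpl50 (−3.15 ± 0.72, adjusted p = 0.018) and Mrpl21 (−2.96 ± 0.48, adjusted p = 0.0044) had the lowest differences. Mrpl3 (0.86 ± 0.43, adjusted p = 0.16), Mrpl48 (0.50 ± 0.36, adjusted p = 0.31), Mrpl24 (0.46 ± 0.33, adjusted p = 0.30) and Mrps33 (0.23 ± 0.16, adjusted p = 0.30) had the highest, of which the signs of Mrpl24 and Mrps33 turned after median centring. For 26 members (34.7%, against 14.2% of all genes) both full-treatment pools lay below all 6 other pools. Against the antibody-alone pools by themselves, both full-treatment pools were below for 29 members (38.7%, against 22.4% of all genes) and above for 10 (13.3%, against 23.3%).

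The mitochondrial ribosome works with further nuclear-encoded proteins, which were counted for the full treatment against Trim21 mRNA with values for antibody alone beside them. Over all genes, 14.5% fell and 8.72% rose with the full treatment against Trim21 mRNA. With antibody alone against non-manipulated embryos, 7.28% of all genes fell and 2.75% rose. Of 4 measured ribosomal proteins with other names, Chchd1 fell, at 5.36 and 6.17 in full-treatment pools and 7.41 and 7.69 with Trim21 mRNA (−1.78 ± 0.31, adjusted p = 0.0069). Dap3 (0.46 ± 0.15, adjusted p = 0.073), Ptcd3 (−1.10 ± 0.43, adjusted p = 0.11) and Gadd45gip1 (−1.38 ± 0.41, adjusted p = 0.053) were not called. Of 30 genes for assembly of the ribosome and modification of its RNA, 8 fell and 1 rose (median −0.49). The fallers included the GTPase gene Noa1 (−1.45 ± 0.17), the small-subunit assembly factor gene Rbfa (−1.24 ± 0.16) and the pseudouridine synthase genes Rpusd3 (−2.31 ± 0.17) and Trub2 (−1.80 ± 0.26). The RNA methyltransferase gene Nsun4 rose, with 8.81 and 8.60 in full-treatment pools and 7.46 and 7.33 with Trim21 mRNA (1.31 ± 0.16, adjusted p = 0.0014). With antibody alone against non-manipulated embryos 6 of the 30 fell and none rose (median −0.60).

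Of 15 translation factor genes 8 fell and none rose (median −0.85), where 14.5% of all genes fell and 8.72% rose. Tufm, which encodes the elongation factor that brings aminoacyl-tRNA to the ribosome, was at 6.91 and 7.05 in full-treatment pools, against 10.90 and 11.25 with Trim21 mRNA (−4.09 ± 0.26, adjusted p = 0.00012). That difference was lower than that of any member. Tufm also fell with antibody alone, at 8.19 and 8.91 against 11.19 and 11.02 in non-manipulated embryos (−2.56 ± 0.26, adjusted p = 0.0043), 1 of 4 that did so. Of 19 genes for mitochondrial aminoacyl-tRNA synthetases and amidotransferase subunits 7 fell (median −0.32), with Yars2 at 6.30 and 6.75 in full-treatment pools and 10.03 and 10.08 with Trim21 mRNA (−3.53 ± 0.40, adjusted p = 0.0010). Of 18 genes for mitochondrial transcription and RNA processing, 7 fell and 1 rose (median −0.83). Polrmt, the mitochondrial RNA polymerase gene, fell (−2.61 ± 0.17, adjusted p = 0.00012), as did the elongation factor gene Tefm (−3.88 ± 0.78, adjusted p = 0.012), and the RNA helicase gene Supv3l1 rose (0.77 ± 0.17, adjusted p = 0.019). With antibody alone 4 of the 19 and 2 of the 18 fell, where 7.28% of all genes fell, and Supv3l1 rose (1.14 ± 0.17, adjusted p = 0.011).

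Of 9 genes for transcription factors and coactivators of nuclear mitochondrial genes, 5 fell with the full treatment against Trim21 mRNA (median −1.11). Of all genes, 14.5% fell in that comparison and 7.28% with antibody alone. The coactivator gene Pprc1 was at 8.80 and 8.86 in full-treatment pools, against 11.90 and 11.70 with Trim21 mRNA (−2.97 ± 0.15, adjusted p = 7.1e-05). Nrf1, which encodes nuclear respiratory factor, was at 8.30 and 8.20 in full-treatment pools and 10.07 in both Trim21 mRNA pools (−1.82 ± 0.15, adjusted p = 0.00028), and the ETS factor gene Gabpa at 8.76 and 8.83, against 10.67 and 10.39 (−1.74 ± 0.17, adjusted p = 0.00054). Myc (−1.25 ± 0.20, adjusted p = 0.0052) and Yy1 (−0.63 ± 0.18, adjusted p = 0.05) also fell. With antibody alone against non-manipulated embryos, Pprc1 (−2.75), Nrf1 (−1.33), Yy1 (−1.05) and Myc (−1.005) fell, and Gabpa was not called (−0.31 ± 0.17, adjusted p = 0.26). Any link of these levels to those of the ribosomal proteins was not tested.

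The genes for proteins of the cytosolic ribosome had lower medians. All 34 that had a row of their own, of 79 listed, fell with the full treatment against Trim21 mRNA (median −2.51, from −4.79 to −0.56), and 19 of 34 fell with antibody alone against non-manipulated embryos (median −0.98). For the mitochondrial ribosomal proteins the medians were −0.965 and −0.695. Of all genes, 14.5% and 7.28% fell in these comparisons. The interaction was called below 0 for 17 of the 34 cytosolic genes (median −1.53), against 4 of the 75 mitochondrial genes (median −0.135) and 3.45% of all genes. The difference between the families was not tested.

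Markers of other cell types were set beside these results. The summed level of 12 measured cumulus and granulosa markers was 9.24 to 9.76 (log2) in full-treatment pools, against 11.70 to 11.76 with Trim21 mRNA, and 10.75 to 11.32 with antibody alone, against 12.14 to 12.15 in non-manipulated embryos. Of these markers Amhr2 fell and Has2 rose with the full treatment, and Amhr2 fell and Cyp11a1 and Star rose with antibody alone. A summed level follows its brightest rows. In each comparison 10 of the 12 differences were above 0 and 2 below, with medians of 0.288 and 0.195. The lower sums therefore did not describe most of these markers. The sum of 7 oviduct markers was 9.11 to 9.37 in full-treatment pools and 10.85 to 10.97 with Trim21 mRNA, where Epcam fell and Muc1 rose, and 10.51 to 10.91 with antibody alone and 10.83 to 10.90 in non-manipulated embryos, where none was called. Between the full treatment and Trim21 mRNA, 4 of the 7 differences were below 0 and 3 above (median −0.015). The sum of 8 sperm markers was 10.17 to 10.35 in full-treatment pools and 9.27 to 9.29 with Trim21 mRNA, where Odf2 and Smcp rose, and 9.12 to 9.80 with antibody alone and 9.45 to 9.49 in non-manipulated embryos, where none was called. Sums of 5 blood and immune markers lay between 7.21 and 7.53 in all 8 pools. The summed level of the 12 embryo markers was 18.34 to 18.84 in full-treatment pools, 17.67 to 17.80 with Trim21 mRNA, 19.36 to 19.58 with antibody alone and 18.20 to 18.21 in non-manipulated embryos. For comparison, the summed level of the 75 members was 14.12 to 14.14 in full-treatment pools, 15.48 to 15.63 with Trim21 mRNA, 14.53 to 14.93 with antibody alone and 15.46 to 15.57 in non-manipulated embryos. The part of other cells in the members' levels was not tested.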

How the data were processed

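RNA of 8 pools of mouse embryos was measured on Affymetrix whole-transcript arrays. Per the labels' protocols, biotinylated cDNA was prepared with a GeneChip WT Pico kit. Affymetrix Expression Console is named without a version in the submitters' processing notes, and neither the summarisation method nor the normalization is given in the sources used here. The deposited values are log2 levels per array row. The first deposited column was treated as a score because 1 of its cells holds a value over 100, which no log2 level reaches, and the row with that cell was left out. Of 65956 rows 65955 were used: 31268 named 1 gene, 1481 several and 33206 none, and 1786 symbols were updated through RefSeq identifiers. For 442 genes on several rows, the row with the highest mean was kept, which left 30711 genes. No filter on low levels was applied.

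A linear model of 4 group means over all 8 arrays was fitted to every gene with limma 3.58.1 (R 4.3.3) and tested two-sided after eBayes. Each gene had 4 residual degrees of freedom, and 6.83 with the prior. P-values were adjusted by Benjamini-Hochberg over all genes within each of 6 comparisons and called under 0.05. The median standard error of the members was 0.224 (0.317 for the interaction). The procedure was tested on simulated data. Samples were grouped by their titles. Replicate numbers share only a number: deviations of same-numbered pools correlated at −0.191 to 0.143 over 6 pairs of groups.

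Members named with values were the 8 lowest and 4 highest differences of the full treatment against Trim21 mRNA, the 4 lowest and 4 highest of each other comparison, genes with stated roles, and members with an interaction call. Others named outside this rule were chosen after their values were seen. The members, lists and rules were chosen with earlier results of these data known. Promoters and symbols came from RefSeq (GRCm38.p6), and array coordinates were not used. Alternatives were quantile normalization, median centring, cyclic loess, a mean level of at least 6, the mean of a gene's rows, older symbols, a trended robust prior, rows at an array's highest value left out, a 2-fold minimum, each array left out, a replicate block, and only the groups compared.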

Additional observations from a re-analysis of the deposited data

Results flagged for a closer look

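The interaction of antibody and injected Trim21 mRNA was called below 0 for 4 members (5.33%, against 3.45% of all genes). These shares are near each other, so the count is not a result about the family. Each group had its own treatment day, so a dependence on Trim21 mRNA and a difference between days cannot be told apart. The interaction (full treatment minus Trim21 mRNA, less antibody alone minus non-manipulated) was −2.19 for Mrpl34, −1.81 for Mrps22, −1.31 for Mrpl13 and −1.11 for Mrps14 on the log2 scale. Mrps22 was called under 12 of 17 other settings, Mrpl34 and Mrpl13 under 8 each and Mrps14 under 7. Adjusted p ran over these settings from 0.0014 to 0.12 for Mrps22, from 0.018 to 0.19 for Mrpl34, from 0.0093 to 0.19 for Mrpl13 and from 0.011 to 0.21 for Mrps14. Groups of 2 pools leave no test for an outlying pool.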

How the results depend on the processing

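Falls of members with the full treatment against Trim21 mRNA numbered 38, and 21 to 51 with 1 array left out, where the count of rises ran from 0 to 4 and the median from −0.98 to −0.915. Rises numbered 5 under quantile normalization, 4 under cyclic loess, 2 with only the groups compared and 4 without the antibody-alone group, and the median was −1.30 after median centring. For antibody alone against non-manipulated embryos, falls numbered 8 (quantile), 11 (cyclic loess), 12 (2-fold minimum), 0 (only the groups compared) and 0 to 47 with 1 array left out; rises 0 after median centring, with only the groups compared, a trended prior or a 2-fold minimum, and 0 to 4 with 1 array left out; the median ran from −0.78 to −0.455. For Trim21 mRNA against non-manipulated embryos 6 members fell with only the groups compared, 0 fell or rose with any 1 array left out, and the median ran from −0.095 to −0.04. For the full treatment against antibody alone, falls numbered 6 with only the groups compared and 10 to 29 with 1 array left out; rises 3 (quantile), 2 (cyclic loess), 0 (median centring, only the groups compared, trended prior, replicate block, 2-fold minimum) and 0 to 10; the median ran from −0.405 to −0.06. Between the full treatment and non-manipulated embryos, rises numbered 6 (quantile), 2 (cyclic loess, only the groups compared, without the antibody-alone group) and 0 to 2, falls 26 to 52, and the median was −1.51 after median centring, −0.664 after cyclic loess and −1.10 to −1.055 with 1 array left out. Interaction calls below 0 numbered 2 (quantile and median centring), 7 (mean level of at least 6), 1 (trended prior) and 0 to 17, above 0 none to 8, and the median ran from −0.265 to −0.075; no value with only the groups compared exists for it. With the replicate number as a block 37, 15, 0, 14, 40 and 1 members fell in the 6 comparisons. Shares of all genes called are given for the fit of all 8 arrays only, and not for these settings.

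Signs differed from the reported ones under at least 1 setting for 15, 16, 26, 34, 16 and 31 members in the 6 comparisons, none of them called as reported. Values of the other sign were called for Mrpl3, Mrpl16, Mrpl42, Mrpl46 and Mrps16 in the full treatment against antibody alone, for Mrps23 between full-treatment and non-manipulated pools, and for Mrpl42 and Mrpl46 in the interaction. Among members named by rule, those of the full treatment against Trim21 mRNA were Mrps5 (−0.157 quantile, −0.265 median centring, −0.100 cyclic loess), Mrps2 (0.181 quantile, 0.184 cyclic loess), Mrps14 (0.048 quantile, 0.115 cyclic loess), Mrps27 (−0.165 median centring) and Mrpl32 (−0.320 median centring, −0.060 without the second Trim21 mRNA pool, and −0.165 to 0.195 with 1 array left out, the lowest without the second full-treatment pool). For antibody alone against non-manipulated embryos they were Mrps22 (0.049 quantile, 0.033 cyclic loess, 0.005 without the second antibody-alone pool) and Mrpl13 (−0.230 median centring, and −0.035 to 0.155 with 1 array left out, the lowest without the first antibody-alone pool), and between full-treatment and non-manipulated pools Mrpl24 (−0.005) and Mrps33 (−0.235), both after median centring. The cause of these changes was not tested. Where an array was left out, the lone pool was assumed to vary like the other groups.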
